A study of Homo sapiens with 6 samples.

Results

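WT-only regions are stretches of accessible chromatin that carried a peak in 3 of 3 wild-type libraries and in 0 of 3 KDM6A knockout libraries once every peak list had been cut to one length. They were selected on the peak calls themselves. Every list was shortened to the length of the shortest one, that of knockout replicate 1, by keeping the peaks on chromosomes 1 to 22, X and Y with the highest −log10 p-value. The 6 shortened lists were then merged wherever peaks shared at least 1 bp, and merged regions with the 3-against-0 pattern were taken. Merging gave 48685 regions, and 27081 of them held a peak in every wild-type list. Of these 27081, 1961 (7.24%) were WT-only. The converse class, KO-only, held 906 of the 23524 regions called in all 3 knockout lists (3.85%). Since the calls chose the regions, these counts and the peak strengths below are a description and carry no test.

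The study asked how KDM6A shapes DNA accessibility in ARP1, a human cell line of multiple myeloma, the malignancy of antibody-secreting plasma cells. One group carries the genotype KDM6A knock out and the other is wild type, with 3 ATAC-seq libraries in each. The labels name no treatment, time point or further allele, and they do not say whether the numbered libraries came from separate cultures or whether the knockout is a single clone. Spread between libraries may therefore be technical. In ATAC-seq the transposase Tn5 inserts adapters into DNA that is not wrapped up in nucleosomes, so a peak marks open chromatin. KDM6A is a demethylase that takes the repressive methyl marks off lysine 27 of histone H3, and it works within the KMT2C and KMT2D complexes at enhancers. Enhancers mostly lie away from promoters, inside introns or between genes, and are open in fewer cell types than promoters are. Promoters of broadly used genes are often rich in CpG and open in most cells, while gene-poor stretches of the genome tend to replicate late and to be closed outside the tissue that uses them.

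Lists of one length were not lists of one stringency. The last peak kept had a −log10 p-value of 4.49, 6.56 and 5.51 in knockout replicates 1, 2 and 3, and of 11.7, 12.4 and 13.2 in wild-type replicates 1, 2 and 3. Its fold over background was 3.31, 4.26 and 3.65 in the knockout lists and 5.12, 5.59 and 5.45 in the wild-type lists, and the kept peaks covered 29.5 to 35.3 Mb per knockout list and 40.1 to 42.9 Mb per wild-type list. The last kept peak thus had a lower −log10 p-value and a lower fold in every knockout list than in any wild-type list, and both measures also depend on depth. The number of reads behind each list is not known from the files. The deposited lists keep a KDM6A start peak in 6 of 6 libraries (fold 8.76 to 13.6 in the wild type and 11.4 to 15.1 in the knockout), which does not report on the coding sequence. The ends of 10 of 10 plasma cell marker genes, SDC1, TNFRSF17, IRF4, PRDM1 and XBP1 among them, had a peak in all 3 full wild-type lists, against 0 of 6 myeloid markers and 3 of 6 B cell markers (PAX5, BCL6 and CIITA, with MS4A1 and CD22 among those at no peak). The ends of 3 of 5 T cell markers (CD3E, CD8A and GATA3), 1 of 6 erythroid markers (KLF1) and 2 of 6 stromal or epithelial markers (COL1A1 and COL1A2) also had one. The full knockout lists are shorter (33056 to 37315 peaks, against 54444 to 56049), and there the counts were 7 plasma cell, 2 B cell, 3 T cell, 1 myeloid, 2 erythroid and 1 stromal or epithelial marker.

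Few WT-only regions lay at promoters, and those that did were mostly poor in G and C. RefSeq lists starts with 300-base windows, from 250 bases before to 50 after the start, and 47 such windows of 46 genes overlapped 43 WT-only regions. The stretches before the start are printed as examples for 6 genes known from blood and immune cells. RNF11, a ubiquitin ligase gene, is added as one of the CpG-rich exceptions. The TREML2 window, with 61.3% G and C, is not poor in G and C either, and the examples do not stand for all 46 genes. TREML2 encodes a TREM-like surface receptor, GPR171 a G-protein-coupled receptor, HHLA2 a checkpoint ligand of the B7 family, BLNK the linker of the B cell receptor, GIMAP2 a lymphocyte GTPase and ARHGAP15 a Rac GTPase-activating protein. These 7 were picked after their values were seen. Each run holds the 250 bases before the RefSeq start (GRCh38.p14), 5′ to 3′ on the gene's strand. Capitals mark a match, on either strand, to the RUNX letters TGTGGTT (GPR171, ARHGAP15), the AP-1 letters TGANTCA (HHLA2), the IRF letters GAAANNGAA and the E-box CACGTG (GIMAP2), or the E-box CAGCTG (TREML2, BLNK, RNF11). A match describes letters and not binding.
TREML2, chr6:41201150-41201399, minus strand: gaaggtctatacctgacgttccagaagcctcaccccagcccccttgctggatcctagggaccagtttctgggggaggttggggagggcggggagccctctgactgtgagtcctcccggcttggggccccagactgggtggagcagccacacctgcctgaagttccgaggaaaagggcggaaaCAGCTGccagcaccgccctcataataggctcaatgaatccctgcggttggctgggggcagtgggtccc
GPR171, chr3:151203217-151203466, minus strand: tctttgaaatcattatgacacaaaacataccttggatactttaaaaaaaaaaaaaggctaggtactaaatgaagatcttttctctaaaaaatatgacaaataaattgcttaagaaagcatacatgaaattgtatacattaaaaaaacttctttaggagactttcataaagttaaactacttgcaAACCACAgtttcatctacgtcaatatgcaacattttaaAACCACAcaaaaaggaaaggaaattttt
HHLA2, chr3:108296298-108296547, plus strand: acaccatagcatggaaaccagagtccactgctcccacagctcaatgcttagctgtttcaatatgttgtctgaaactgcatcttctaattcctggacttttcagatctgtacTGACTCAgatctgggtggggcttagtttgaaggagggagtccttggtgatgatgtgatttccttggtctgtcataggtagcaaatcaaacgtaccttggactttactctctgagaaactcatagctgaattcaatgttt
BLNK, chr10:96271570-96271819, minus strand: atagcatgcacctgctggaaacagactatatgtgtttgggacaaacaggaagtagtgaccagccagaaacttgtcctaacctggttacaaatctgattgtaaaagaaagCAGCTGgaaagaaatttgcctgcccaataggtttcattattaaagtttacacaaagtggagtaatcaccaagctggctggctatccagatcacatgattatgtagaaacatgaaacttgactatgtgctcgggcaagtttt
GIMAP2, chr7:150685456-150685705, plus strand: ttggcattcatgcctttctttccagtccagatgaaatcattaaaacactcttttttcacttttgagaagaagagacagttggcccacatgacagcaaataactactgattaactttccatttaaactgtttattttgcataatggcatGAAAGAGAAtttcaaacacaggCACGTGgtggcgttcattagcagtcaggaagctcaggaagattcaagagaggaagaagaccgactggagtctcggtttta
ARHGAP15, chr2:143129169-143129418, plus strand: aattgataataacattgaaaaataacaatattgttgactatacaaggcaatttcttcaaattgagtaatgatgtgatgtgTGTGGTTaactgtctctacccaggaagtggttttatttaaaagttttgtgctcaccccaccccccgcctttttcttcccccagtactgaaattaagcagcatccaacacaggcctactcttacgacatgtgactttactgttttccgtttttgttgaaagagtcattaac
RNF11, chr1:51236023-51236272, plus strand: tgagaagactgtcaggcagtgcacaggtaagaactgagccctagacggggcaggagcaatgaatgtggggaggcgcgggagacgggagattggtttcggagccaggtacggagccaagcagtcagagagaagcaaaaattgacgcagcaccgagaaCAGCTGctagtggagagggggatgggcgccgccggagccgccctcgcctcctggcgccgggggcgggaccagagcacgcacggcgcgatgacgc

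Peaks at these starts ranged from strong to near the limit of the lists. The TREML2 region (chr6:41199361-41201859) had a fold over background of 15.2, 16.3 and 19.7 in wild-type replicates 1, 2 and 3, and it was among the strongest WT-only regions of all. The GPR171 region (chr3:151202794-151203484) followed with 8.11, 8.02 and 8.59, and the HHLA2 region (chr3:108295923-108296516) with 8.97, 8.51 and 6.50. BLNK (chr10:96271329-96272183) stood at 6.19, 8.02 and 7.96. TREML2 thus stood above the other 3 in every wild-type list. GIMAP2 (chr7:150685143-150686147) had 8.33, 7.53 and 6.50, ARHGAP15 (chr2:143128517-143129447) 6.62, 6.56 and 7.96, and RNF11 (chr1:51234864-51236947) 5.77, 6.81 and 6.50. TREML2 and GIMAP2 each had a weaker peak past the last kept rank in 1 full knockout list, and the other 5 had none in any. The WT-only region at chr2:230225085-230226142 covered the paired starts of SP110 and SP140, nuclear body proteins of leukocytes, at 7.26, 6.08 and 6.29.

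As a set, the 47 overlapped promoter windows held fewer CpG pairs than promoters shared by both genotypes. Their median G and C share was 49% (interquartile range 40% to 58%), against 66% in the 13865 windows overlapped by a region called in all 6 lists, 70.7% in the 114 windows at KO-only regions and 58.7% in all 35116 windows. The median number of CpG pairs was 4, against 27, 28 and 14. Of the 47 windows 25 belonged to protein-coding genes and 22 to lncRNA genes, against 11290 and 2575 of those called in all 6 lists. Taken apart, a split chosen after seeing the data, the medians were 49.3% and 66.3% for protein-coding starts and 48.2% and 65.7% for lncRNA starts. The AP-1 letters occurred in 9 of the 47 windows (19.1%), against 3.91% of the windows called in all 6 lists and 7.71% of all windows. The SP/KLF letters GGGGCGGGG, typical of CpG-rich promoters, occurred in 1 window (2.13%), against 27.2% and 15.7%. Base composition moved with these shares: among windows called in all 6 lists with a G and C share of at most 58%, 7.80% held the AP-1 letters and 6.38% the SP/KLF letters. Among all windows limited in the same way the shares were 11.9% and 2.18%. The IRF letters were in 14.9% of the 47 windows, and in 13% of the composition-limited windows called in all 6 lists. Of the 13 motifs searched, the CTCF letters AGGGGGCGC, the NRF1 letters GCGCATGCG and the MEF2 letters CTATTTNTA had no match in the 47 windows, which allows a share of up to 6.38% for each. In windows called in all 6 lists and in all windows, CTCF had 3.07% and 1.93%, NRF1 4.10% and 1.92%, and MEF2 0.57% and 1.26%. All of these lie below that limit. For the other motifs, shares are given for the 47 windows, for windows called in all 6 lists and for all windows, in that order. They were 23.4%, 16.2% and 17.9% for the E-box CAGCTG, 8.51%, 2.87% and 4.27% for RUNX, 8.51%, 2.33% and 1.85% for the NF-kB letters GGGANTTCC and 4.25%, 1.28% and 1.77% for the OCT letters ATGCAAAT. The E-box CACGTG had 6.38%, 10.02% and 7.26%. For the ETS letters CCGGAAG (14.9%, 19.6% and 10.3%) and the GATA letters AGATAA (6.38%, 4.24% and 10.3%) the direction depended on which set was compared. With both comparison sets limited to at most 58% G and C, their shares were 15.4% and 17.2% for CAGCTG. They were 6.11% and 6.57% for RUNX, 2.4% and 1.52% for NF-kB and 2.83% and 2.74% for OCT. For CACGTG they were 8.24% and 4.63%, for ETS 16.5% and 4.89%, and for GATA 11.6% and 18.3%. With 47 windows, 1 match is worth 2.13% (a single match), so that the smaller of these differences rest on a few genes. Windows of paired starts overlap one another and share their letters.

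WT-only regions were narrow and weak beside the regions both genotypes shared. Their median width was 875 bp (interquartile range 724 to 1075 bp), against 1559 bp for the 20699 regions called in all 6 lists. The median fold was 6.83, 7.29 and 7.33 in wild-type replicates 1, 2 and 3, against 12.2, 14.3 and 12.8 at the shared regions. A fold of at least 6 in all 3 lists was reached by 1198 regions (61.1%), of at least 8 by 280, of at least 10 by 75 and of at least 12 by 19. Ranked by the weakest of their 3 wild-type peaks and divided into quintiles, the wild-type-called regions were WT-only in 1 of 5417 cases in the strongest quintile, and in 29, 173, 523 and 1235 cases (22.8%) in the following 4. Peak strength is part of the rule, so this order is a description of how the regions were chosen.

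Taking as strength the rank of the weakest of the 3 wild-type peaks, the strongest WT-only regions were mostly distal elements beside or inside a mixed set of genes. The one with the best ranks lay at chr13:109547460-109548913, 204 kb from IRS2, which encodes an adaptor of insulin and IGF signalling, with a fold of 19.2, 20.7 and 16.97 in wild-type replicates 1, 2 and 3. A region inside EPHA4, an ephrin receptor gene, at chr2:221548828-221549896 had 14.1, 19.9 and 17.4. A region 37.1 kb from BLID at chr11:122153306-122154857 had 13.9, 19.2 and 17.2. In each of these 3 regions no list fell below 13.9. GRM3, the gene of a metabotropic glutamate receptor, held 2 of the 20 strongest, at chr7:86785130-86786309 (12.4, 14.6 and 14.2) and at chr7:86684982-86685944 (13.03, 14.3 and 12.4). LRRC4C, whose product is the netrin-G ligand of synapses, held one at chr11:41039333-41040762 (11.5, 15.5 and 18.2). The others of the 20 lay inside FRMPD4, FBN2 and TMC1, at an end of CFHR4, a complement factor H relative, or outside genes nearest to ADAMTS15, H3Y1, TMEM38B, NR2F2, ARAP2, MMUT, ZC3H12C, COX7C and TENM3, at distances from 4.06 kb (TENM3) to 878 kb (NR2F2). Of the 20, the regions at TREML2 and CFHR4 lay at an end of a protein-coding gene. The first of the GRM3 regions overlapped 2 promoter windows of the lncRNA gene GRM3-AS1, and the second window only at its edge.

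**Figure D1:**
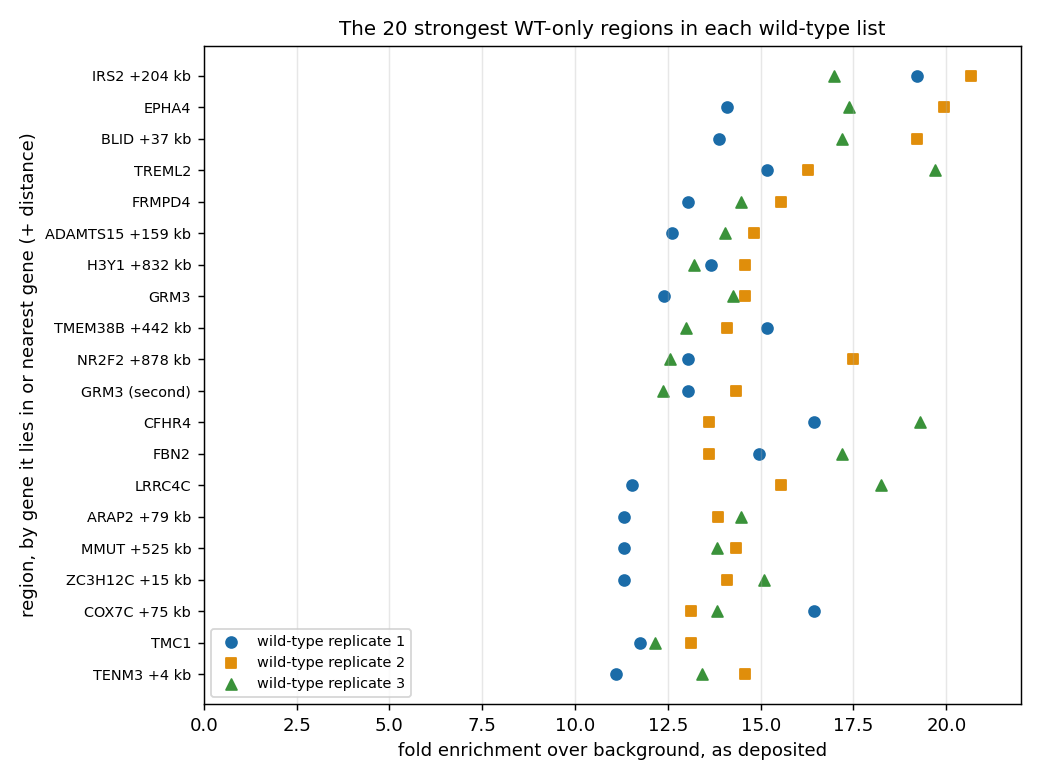
Fold enrichment over background (x axis, as the authors' peak caller gave it) of the 20 strongest WT-only regions (y axis, by the gene they lie in or the nearest gene with its distance), 1 symbol per wild-type replicate. The region 204 kb from IRS2 stands at 16.97 to 20.7, and the weakest value among the 20 is 11.1, at TENM3.

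Past the limit, the full knockout lists held few further peaks at these regions. Of the 1961 regions, 1770 (90.3%) had no peak in any full knockout list, 177 had one in 1 list and 14 in 2. The shortening removed 4259 peaks from knockout replicate 2 and 3000 from replicate 3, and 131 and 74 WT-only regions met one of them. Those peaks had median folds of 3.93 and 3.65. The list of knockout replicate 1 lost no peak to the shortening, so nothing past the limit could be seen there, and weaker signal than any deposited peak cannot be seen in any list. Just inside the limit stood a region at chr6:106179496-106180920, 3.56 kb from the autophagy gene ATG5, whose weakest wild-type peak was the last one kept in replicate 1. Regions inside PRKG1 (chr10:51860019-51861115) and inside SULT1E1 (chr4:69823175-69826597) counted as WT-only because their knockout peaks, at ranks 33088 in replicate 2 and 33080 in replicate 3, fell just past the limit. Just outside, a region 65421 bp from PPP1R26 and one inside ZBTB20 at chr3:115099793-115100661 were barred by knockout peaks at ranks 33050 in replicate 2 and 33018 in replicate 3.

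When regions were chosen anew on fewer lists, the lists left out showed the same order. The list length still came from knockout replicate 1. Each list left out here had also helped to choose the 1961 regions, so the shares describe how calls recur and are no independent support. Leaving out 1 wild-type and 1 knockout library at a time gave 9 pairs, and WT-only regions chosen on the remaining 4 lists numbered 3023 to 3791. In the left-out wild-type list 71.7% to 82.9% of them had a kept peak (median 77.2%), and in the left-out knockout list 17.2% to 27.8% (median 19.5%). The ranges of the 2 genotypes did not overlap. Among all regions with a peak in both remaining wild-type lists the shares were 93.7% to 94.5% and 80.7% to 84.9%. Weak regions return less often, so the same was done within the weakest quintile of those regions. There the WT-only regions returned in 59.3% to 73.7% of cases in the left-out wild-type list and in 14.6% to 23.02% in the left-out knockout list. Regions of the same quintile called in all 4 lists returned in 79.7% to 87.9% and in 81.5% to 85.5%. These were chosen for a peak in both remaining knockout lists, and a quintile does not equalize strength. In the weakest quintile of the 6-list set the median wild-type fold was 6.70 for WT-only regions and 7.16 for regions called in all 6. The 9 pairs share libraries and give no p-value. When only 1 library was left out, the recovered share was 75.8%, 70.0% and 81.0% for wild-type replicates 1, 2 and 3, and 20.2%, 29.3% and 19.7% for knockout replicates 1, 2 and 3, the highest of them in replicate 2, the knockout list with the highest −log10 p-value at its last kept rank. The KO-only regions chosen on 4 lists returned in 56.5% to 67.4% of cases in the left-out knockout list and in 14.03% to 21.96% in the left-out wild-type list.

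**Figure D2:**
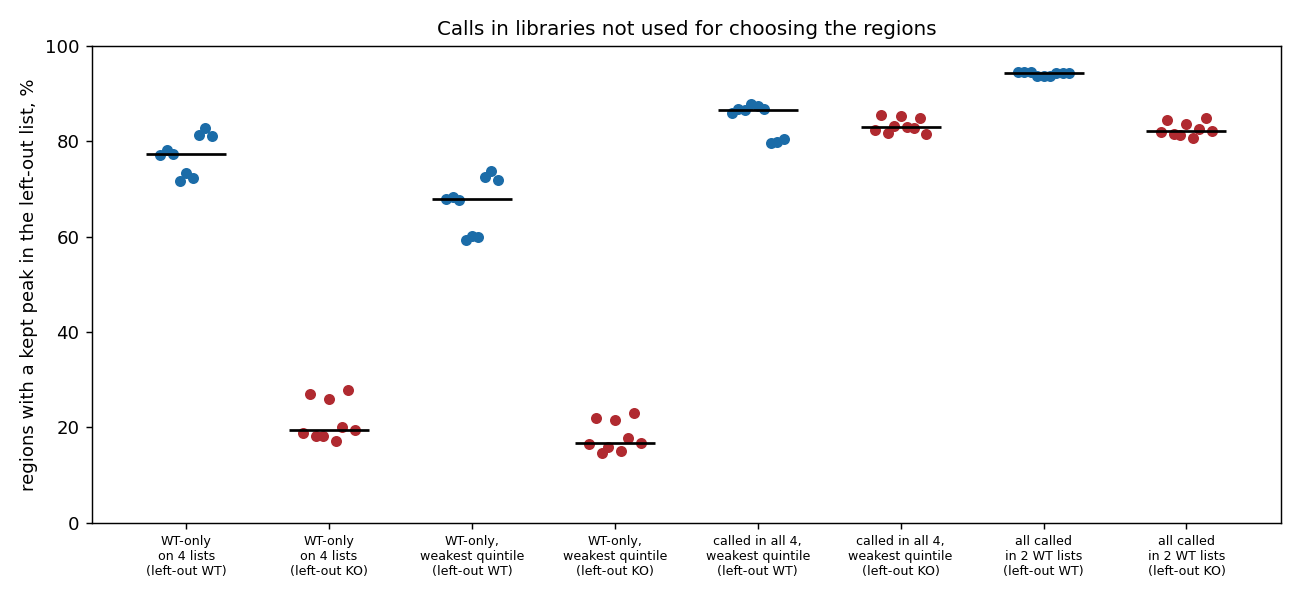
Share of regions with a kept peak in a list that was not used to choose them (y axis, %), 1 point per pair of left-out libraries and the median as a line, with wild-type lists in blue and knockout lists in red. WT-only regions sit at 71.7% to 82.9% in left-out wild-type lists and at 17.2% to 27.8% in left-out knockout lists, whereas weak regions called in all 4 other lists stand at 79.7% to 87.9% and at 81.5% to 85.5%.

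WT-only regions kept away from the ends of genes. Only 67 of the 1961 (3.42%, 95% Wilson interval 2.70% to 4.32%, for counting error only) lay at a gene end, within 1 kb of where a RefSeq protein-coding record starts or stops, against 34.9% of all wild-type-called regions, 43.9% of the regions called in all 6 lists and 13.7% of the KO-only regions. A further 793 (40.4%) lay inside a gene record and 1101 (56.1%) outside, against 24.4% and 31.8% of the regions called in all 6. The median distance to a gene end was 68.1 kb, against 4.79 kb at the shared regions and 31.7 kb at KO-only regions, and 815 WT-only regions (41.6%) lay over 100 kb away, against 16.9%. Weak peaks lie at gene ends less often, but in the weakest quintile the share at a gene end was still 3.56% of WT-only regions and 27.2% of regions called in all 6 lists.

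The few regions at gene ends touched genes of varied roles. After TREML2 and CFHR4, the strongest were at OR2M4, an olfactory receptor gene, with a fold of 11.5, 11.2 and 9.01 in wild-type replicates 1, 2 and 3. MUC7, a salivary mucin gene, had 8.54, 9.72 and 9.85, and STEAP2, a metalloreductase gene, had 9.18, 9.72 and 11.1. All 3 stood above a fold of 8 in every wild-type list. SLC36A4, an amino acid transporter gene, had 10.7, 9.72 and 10.5, and HAVCR1, which encodes the immune receptor TIM-1, had 8.33, 9.24 and 10.7. PABPC4L, CNIH4, RIC3, GPR85, GPR171, FMN2, FMO1, PRKCE, GSDME (the pyroptosis gasdermin E), PHF21A, AVL9 and RTKN2 were also among the 20 strongest gene-end regions. SLC36A4 and PHF21A had a weaker peak past the last kept rank in 1 knockout list. The widest WT-only region, 5058 bp, lay at chr4:151990044-151995101, 229 kb from GATB, with folds of 6.83, 7.78 and 7.54, and regions inside SULT1E1 and near MBD2 and FCRL5 were also among the 5 widest. Neither the region near GATB nor the one inside SULT1E1 was WT-only when peaks were cut to 250 bp on either side of their summits.

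WT-only regions had fewer genes around them than shared regions did. The median number of protein-coding genes within 500 kb was 4, against 8 around the regions called in all 6 lists, and 35.1% had at most 2, against 14.8%. Over 20 genes surrounded 2.40% of WT-only regions and 16.9% of the shared ones. Of the wild-type-called regions with over 20 genes around them 1.25% were WT-only, of those with 11 to 20 genes 3.45%, with 6 to 10 genes 6.12%, with 3 to 5 genes 10.6% and with 1 or 2 genes 15.1%. Where no gene lay within 500 kb the share was 11.7%, below that of the next class. The order was alike among weak regions: in the weakest quintile the shares ran from 5.89% with over 20 genes to 34.6% with 1 or 2 genes and 22.2% with none. KO-only regions shared part of this: 56.1% lay outside genes, 28.4% had at most 2 genes within 500 kb, 34.3% lay over 100 kb from a gene end and 19.4% over 500 kb (9.84% of WT-only regions). At the dense side they differed from WT-only regions in these counts, with over 20 genes around 16.5% of them and a median of 8 genes. RefSeq promoter windows within 500 kb of WT-only regions had a median G and C share of 53.0%, against 58.7% around the shared regions. Limited to regions over 10 kb from a gene end the medians were 52.2% and 55.5% (92.3% and 88.5% of the regions had such a window).

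**Figure D3:**
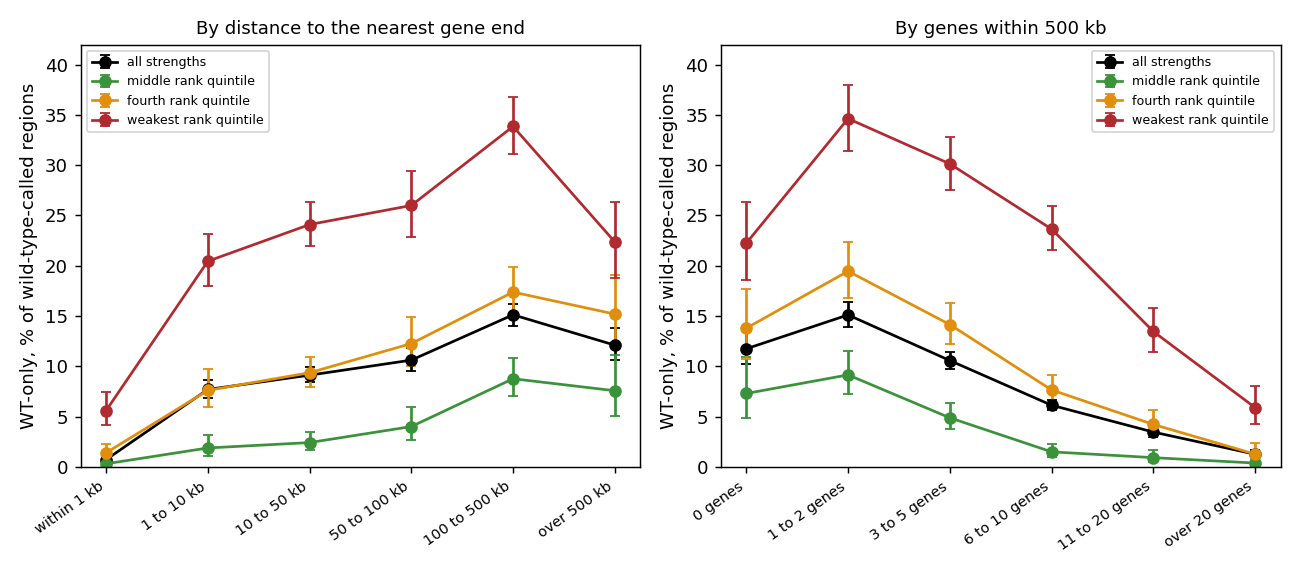
Share of wild-type-called regions that were WT-only (y axis, %) by distance to the nearest gene end (left) and by the number of protein-coding genes within 500 kb (right), for all regions and for 3 quintiles of wild-type rank, with 95% Wilson intervals that cover counting error only. With over 20 genes nearby the share is 1.25% over all strengths, with 1 or 2 genes 15.1%, and the weakest quintile shows the same order at 5.89% and 34.6%.

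Chromosomes differed widely. On chromosome 4, 218 of 1841 wild-type-called regions were WT-only (11.8%), followed by 10.3% on chromosome 13, 9.71% on chromosome 7, 9.55% on chromosome 5 and 9.32% on chromosome 11. On chromosome 19, 2 of 858 regions were WT-only (0.233%), on chromosome 21 2 of 289, on chromosome 20 5 of 353, and on chromosome 22 0 of 359, which allows a share of up to 0.836%. Chromosomes 14, 16, 17, 19, 20, 21 and 22 together, grouped after their values were seen, held 73 of 3911 (1.87%), and the others 1888 of 23170 (8.15%). The difference was also there over 10 kb from gene ends, with 14.8% on chromosome 4, 14.6% on chromosome 11 and 1 of 187 regions (0.535%) on chromosome 19.

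Shared regions were displaced on the same chromosomes. At regions called in all 6 lists, the median, over regions, of the knockout rank minus the wild-type rank was 1144 on chromosome 4 and 1132 on chromosome 11, so that these regions stood lower in the knockout order, and −4148 on chromosome 19 and −5376 on chromosome 22, where they stood higher. Across 23 chromosomes this displacement and the WT-only share had a Spearman correlation of 0.84 and a Pearson correlation of 0.91, given as a description since all points share the same 6 libraries. With the displacement taken over 10 kb from gene ends they were 0.85 and 0.93. The WT-only share was correlated with the median gene number within 500 kb at a Spearman value of −0.68, and with the KO-only share at −0.75. By gene number, the shared regions were displaced by 1820 ranks with 1 or 2 genes around them, by 576 with 6 to 10 and by −2614 with over 20, but by −1957 where there was no gene at all. Gene number, base composition, displacement of the shared regions and chromosome thus moved together with the WT-only share, and their part in it was not tested. Peak lists hold no copy number, so a difference between the cells in chromosome copies and one in accessibility cannot be told apart here. The KO-only share was also high on chromosomes 2 and 3 (7.07% and 7.60%), where the WT-only share was 7.67% and 7.47%. Of the 1961 regions, 22 lay in the 48 bins of 1 Mb that held a mean of 60 or more peaks per full list, in which 1.70% of wild-type-called regions were WT-only, against 7.52% in all other bins.

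**Figure D4:**
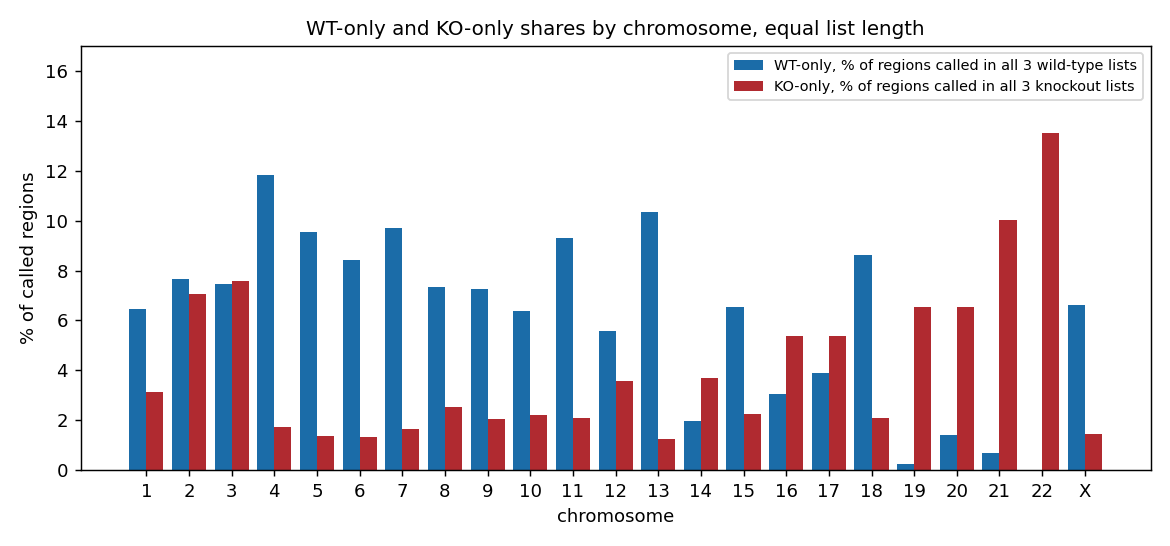
Share of called regions that were WT-only (blue, % of regions with a peak in every wild-type list) and KO-only (red, % of regions with a peak in every knockout list) by chromosome (x axis), for chromosomes with at least 100 wild-type-called regions. Chromosome 4 has the highest WT-only share at 11.8%, chromosome 22 has none, and chromosome 22 has the highest KO-only share.

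Inside genes, the WT-only regions lay in long ones. The 793 regions inside a gene had a median host length of 231 kb, against 140 kb at the shared regions, and 39.97% of the hosts, counted per region, were over 300 kb long, against 26.8%. Of the wild-type-called regions inside genes of up to 30 kb 6.06% were WT-only, inside genes of 30 to 100 kb 8.45%, of 100 to 300 kb 9.96%, of 300 kb to 1 Mb 12.3%, and inside genes over 1 Mb 82 of 379 (21.6%, Wilson interval 17.8% to 26.1%). Within 10 kb of a gene or inside it, 863 genes had at least 1 WT-only region, and 40 genes, of a median length of 717 kb, had 3 or more.

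The genes with the most WT-only regions were long and of mixed roles. LRRC4C, 1345 kb long, held 8 of 20 wild-type-called regions, and TENM2, which encodes a teneurin that binds latrophilins across synapses, 7 of 23. In LRRC4C the weakest of the 8, at chr11:40294182-40294644, had a fold of 6.41, 5.83 and 7.54 in wild-type replicates 1, 2 and 3, and 5 other regions in the same gene were called in all 6 lists, up to folds of 31.8, 33.8 and 33.7. Loss and retention of calls thus alternated along the gene. In TENM2, a WT-only region at chr5:168191589-168193083 (10.5, 13.4 and 16.6) lay above a shared one at chr5:168172433-168175215 (20.7, 31.1 and 26.6). DGKB, a diacylglycerol kinase gene, held 5 of 8 and no region called in all 6 lists. Its strongest, at chr7:14196144-14197790, had 9.18, 10.2 and 9.85. RYR2, the ryanodine receptor of heart muscle, held 5 of 9, and ERBB4, a receptor of neuregulins, 5 of 13. TAFA2, a secreted chemokine-like protein, held 4 of 5, of which the one at chr12:62192362-62193076 (5.77, 5.83 and 8.80) overlapped a RefSeq start of the gene. NHSL1 held 4 of 7, PRKG1, the cGMP-dependent kinase, 4 of 8, SEMA3A, a repulsive axon guidance cue, 4 of 8, and CCSER1 4 of 9.

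Most WT-only regions stood alone at this scale, and some came in runs. A WT-only neighbour lay within 100 kb of 592 of them (30.2%), and 49 runs of 3 or more with gaps of at most 100 kb held 152. Runs of 4 were the longest and numbered 5: a 43.5 kb stretch 276 kb from CHRM3, a 90.7 kb stretch 225 kb from GJA1, a 110 kb stretch between PRSS58 and PRSS1 at the T cell receptor beta locus, a 117 kb stretch that began 40.9 kb from RGS18 and ended in RGS21, and 138 kb inside NHSL1. In the runs near CHRM3, GJA1 and RGS18 each wild-type-called region was WT-only. The median distance to the nearest region called in all 6 lists was 55.2 kb, against 27.4 kb from one shared region to the next.

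Single megabases held up to 9 WT-only regions. Megabase 109 to 110 of chromosome 13, with the end of MYO16 and with IRS2, held 9 among 14 wild-type-called regions, while the shared peaks there included one inside MYO16 at chr13:109161565-109163520 with a fold of 34.6, 34.3 and 37.1 in wild-type replicates 1, 2 and 3. Megabase 86 to 87 of chromosome 7 held 7 of 8, of which 3 were all the wild-type-called regions of GRM3 and 2 lay in ELAPOR2. The next megabases had 7 each. On chromosome 1, megabase 191 to 192 held 7 of 8 and no protein-coding gene, and the adjoining one, with RGS18, RGS21, RGS1, RGS13 and RGS2, regulators of G-protein signalling, held 7 of 20. There the regions at RGS1 and RGS2 themselves were called in all 6 lists (20.3, 20.2 and 18.7 for RGS1 at chr1:192575268-192576114, and 43.8, 56.6 and 39.8 for RGS2 at chr1:192807130-192809821). Megabase 169 to 170 of chromosome 1, held 7 of 16, of which 3 lay inside NME7, one of them at chr1:169363101-169363988 with 10.2, 6.56 and 11.5. Megabase 158 to 159 of chromosome 5 held 7 of 13, of which 6 lay between CLINT1 and EBF1 and 1 inside EBF1, an early B cell factor gene. The strongest of them was at chr5:158398111-158399425 (12.4, 12.9 and 12.99), 296 kb from EBF1.

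Around the genes of the lists, shares were near or below that around all genes, except for axon guidance and synaptic adhesion. Within 50 kb of any protein-coding gene, 1232 of 21409 wild-type-called regions were WT-only (5.75%), and within 50 kb of the 511 listed genes 57 of 1363 (4.18%). Of these 57, 31 came from the axon guidance list, which raises the pooled share. The shares of the other lists ran from 0% to 6.35%, and only that of IL6 and JAK-STAT genes was above 5.75%. The 28 genes of axon guidance and synaptic adhesion had 31 of 138 (22.5%), near 12 of the genes. These genes are long, and around all 773 protein-coding genes over 300 kb the share was 11.5%. Under the other list lengths, overlap rules and left-out libraries the axon guidance share was 15.0% to 34.7%, against 3.79% to 15.2% around all genes. Among these, CDH13, CNTNAP2 and SEMA3A had 4 each, DCC and PCDH15 3 each, LRP1B, NLGN1, PCDH9 and UNC5C 2 each, and CDH2 and SLIT2 1 each. In SEMA3A the strongest lay at chr7:84336042-84337040, with a fold of 10.9, 13.4 and 9.85 in wild-type replicates 1, 2 and 3, and in CDH13, a cadherin without a cytoplasmic tail, at chr16:82783480-82785053 (11.1, 9.72 and 10.7). CNTN4, by contrast, had 8 of 9 regions called in all 6 lists and none WT-only, and 16 of the 28 genes had no WT-only region.

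**Figure D5:**
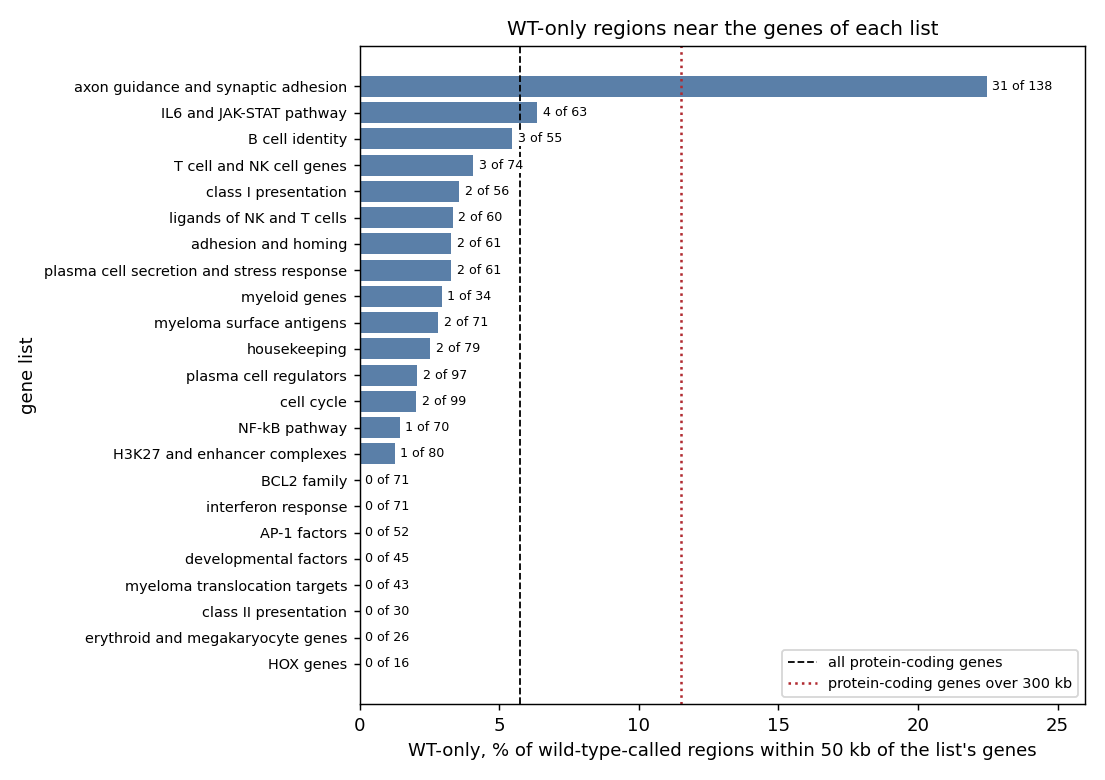
Share of wild-type-called regions within 50 kb of the genes of each list that were WT-only (x axis, %), with the count beside each bar. The dashed line marks all protein-coding genes (5.75%) and the dotted line those over 300 kb (11.5%). Axon guidance and synaptic adhesion reach 22.5%, and 8 lists have no WT-only region.

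Counts near plasma cell and B cell genes were small, and are read against 5.75% around all genes. The list named plasma cell regulators had 2 of 97 (2.06%), inside ZBTB20 (8.11, 6.81 and 9.64 in wild-type replicates 1, 2 and 3) and inside EBF1 (5.55, 6.08 and 6.92). EBF1, an early B cell factor gene, also stands in the B cell identity list. Genes of secretion and stress response had 2 of 61 (3.28%), at JCHAIN, which encodes the joining chain of polymeric antibodies (5.98, 6.32 and 6.92), and inside CREB3L2 (5.34, 6.08 and 5.87). The regions at EBF1, JCHAIN and CREB3L2 stood below the WT-only median in every wild-type list. Myeloma surface antigens had 2 of 71 (2.82%), 16.7 kb below FCRL5 (6.41, 6.56 and 7.75) and 2.57 kb above NCAM1 (5.55, 8.02 and 7.75). B cell identity genes had 3 of 55 (5.45%), at EBF1, BLNK and the kinase gene BLK, a share near the background.

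Counts near genes of immune recognition were small, and most could not be set apart from the background of 5.75%. Ligands of natural killer and T cells had 2 of 60 (3.33%), inside TNFSF4, which encodes the OX40 ligand (5.12, 6.56 and 7.54), and 28.02 kb below CD47, the ligand of the macrophage receptor SIRPA (5.98, 6.56 and 7.96). Class I presentation genes had 2 of 56 (3.57%), one of them inside PDIA3, which encodes a disulfide isomerase of the peptide-loading complex (6.41, 7.29 and 6.70). Class II presentation genes had 0 of 30, which allows a share of up to 10%, so the background share of 5.75% lies within what such a count can hide. Interferon response and BCL2 family genes had 0 of 71 each, an upper limit of 4.23%. That limit lies below the background share and covers counting error only. The limit is 5.77% for AP-1 factors (0 of 52), 6.67% for developmental factors (0 of 45), 6.98% for translocation targets (0 of 43), 11.5% for erythroid and megakaryocyte genes (0 of 26) and 18.8% for HOX genes (0 of 16).

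Signalling and control lists completed the survey. IL6 and JAK-STAT genes had 4 of 63 (6.35%), near JAK1, JAK2, SOCS2 and between IL4R and IL21R. The region inside SOCS2, a suppressor of cytokine signalling, was the strongest of them (7.05, 8.99 and 7.96 in wild-type replicates 1, 2 and 3) and had a weaker peak past the last kept rank in 1 knockout list. The remaining lists all had shares below the 5.75% around all genes. T cell and NK cell genes had 3 of 74 (4.05%, NCAM1, IL2RA and LEF1) and adhesion and homing genes 2 of 61 (3.28%, CD44 and NCAM1). Cell cycle genes had 2 of 99 (2.02%, both near MCM3) and housekeeping genes 2 of 79 (2.53%, near PPIA and RPLP0). Myeloid genes had 1 of 34 (2.94%, LYZ) and NF-kB genes 1 of 70 (1.43%, REL). The H3K27 and enhancer complexes had 1 of 80 (1.25%, JARID2, a cofactor of the PRC2 methyltransferase). Some genes stand in more than one list, and one region can lie near several genes.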

How the data were processed

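The authors deposited 1 narrow-peak list per ATAC-seq library. The submitters' processing notes list Trimmomatic, FastQC, MultiQC, Bowtie2 and MACS2 2.1.2 with GRCh38. No settings are in the sources used here. Per deposited peak, the authors' caller gave a score, a fold over background (a ratio) and p- and q-values, both as −log10. Fold values depend on each library's depth and background, so those of different lists are set side by side as a description, and ranks were used between lists of equal length. The 1 peak per list off chromosomes 1 to 22, X and Y was left out. Ties in the −log10 p-value were ordered by chromosome number, then start. Ties at the last rank reached 2021 peaks in knockout replicate 2, of which 1221 were kept.

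Gene positions (20037 protein-coding records, no strand) and promoter windows came from RefSeq tables of GRCh38.p14. Promoters of chromosome 8 and a genome sequence were not used here, so no sequence was read from regions outside promoter windows, and exons and introns were not told apart. Of the listed genes 511 were matched. No test was run, because the calls chose the regions. Intervals are Wilson intervals. The upper limits given for counts of 0 are not: they are 3 divided by the number of regions or windows. Wilson limits are higher, such as 1.06% in place of 0.836% on chromosome 22. Regions and genes were named by a fixed rule: the 20 strongest and 5 widest regions, up to 20 at gene ends, 10 genes and 5 megabases with most regions, the 5 longest runs, up to 4 genes per list and the 5 regions on each side of the limit. A sixth megabase tied with the last of the 5 and is given too. Values of a few genes named by the rule are not reported here. Regions and lists were chosen with earlier results of these data known. Merging and calling were tested on simulated lists. Python 3.11.15, pandas 2.3.3 and numpy 2.4.6 were used.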

Additional observations from a re-analysis of the deposited data

How the results depend on the processing

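With 20000, 25000 and 30000 peaks kept per list the WT-only regions numbered 840, 1108 and 1574, and with the full lists 6871. Their gene-end share was 5.83% with 20000 peaks and 4.33% with 25000, 2.50% with windows of 500 bp and 5.10% with windows of 2 kb. With starts of the promoter table in place of gene ends it was 1.58%. That is another measure than the 43 regions that overlapped a promoter window of either gene kind, of which 24 did so at protein-coding starts. Leaving out each library in turn gave 2434 to 2807 regions and a gene-end share of 2.92% to 3.77%. Within 10 kb of the listed genes 5.60% of regions were WT-only and within 100 kb 4.25%. Of these WT-only regions, 30 of 44 and 33 of 83 lay near axon guidance and synaptic adhesion genes. Autosomes alone gave 1916 regions, absence from the full knockout lists 1770 and peaks cut around summits 1974. A rule that merges peaks only at large overlaps and needs a summit inside gave 1966. Ranking by fold returned 1961 regions and the same gene-end share, and is no separate check. In the named regions, fold and −log10 p-value gave the same order within each list. The order of ties, genes over 300 kb as a background, a limit on promoter composition and the kind of gene at a start were examined after seeing the data: ties taken from the last chromosome onward gave 1967 regions, and leaving tied peaks out gave 1915. Of the 20 strongest regions 18 were WT-only in each of these settings: TREML2 was lost with the full knockout lists, and FRMPD4, on chromosome X, with autosomes alone. Most settings could hardly remove them. Their wild-type peaks all ranked 12167 or better, so lists of 20000 to 30000 peaks kept every one and only shortened the knockout side. Leaving out a library only eases the rule. KO-only regions numbered 575 with 20000 peaks, 95 with the full lists and up to 1679 without a knockout library.

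No paired analysis was possible because the regions are chosen by a presence count and no test is run. The depth of the libraries is not known from peak lists, and a region weaker than the last kept peak cannot be told apart from a closed one.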
